A study of Mus musculus with 3 samples.

Results

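Heme is assembled from glycine and succinyl-CoA by a chain of enzymes that starts and ends in the mitochondrion, and 8 genes of this chain were followed here: Alas1, Alas2, Alad, Uros, Urod, Cpox, Ppox and Fech. They were taken by symbol from the 32285 genes of the count tables, and each symbol matched exactly 1 gene. The data were single-cell RNA sequencing of bone marrow from male mice aged 6 weeks, in 2 libraries from mice with the genotype Ep300-Znf384-V5-HA and 1 library from wild type. The fusion joins Ep300, a lysine acetyltransferase, to ZNF384, a zinc finger transcription factor, and carries V5 and HA epitope tags. The mouse strain, the promoter that drives the fusion and whether a library holds 1 animal or several are not given in the sources used here. Red cells had been lysed, and each library mixed equal numbers of live cells from whole marrow and live cells without lineage markers, so the shares of cell types are those of this mixture. The question was how far the heme chain differs between fusion and wild-type cells of the same stage.

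The first step, condensation of glycine and succinyl-CoA to aminolevulinic acid, is carried out by 2 synthases. ALAS1 is the housekeeping form, and ALAS2 is the erythroid form, encoded on the X chromosome, whose transcription rises as red cell precursors fill with haemoglobin. ALAD then joins aminolevulinic acid molecules into porphobilinogen in the cytosol, UROS and UROD act on the ring, CPOX and PPOX oxidise it, and FECH inserts iron. In the bone marrow most heme is made by erythroid cells, while neutrophil precursors need heme for myeloperoxidase.

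Promoter sequences show which members carry, near their start, the letters read by GATA factors, which drive erythroid genes. Windows of 250 bases before to 50 bases after the start were taken from RefSeq (GRCm38.p6) for 7 members (all but Fech), giving 10 windows. AGATAA or TGATAA on either strand was present in 3 of the 10 windows, and in 18.6% of 32851 mouse promoter windows of the same 300-base length. AGATAA alone was in 11.2% of those windows and TGATAA alone in 9.05%. GGGCGGGG on either strand, the GC box, was in 5 of the 10 windows and in 17.6% of all windows. Both Alad windows are among these 5, and they overlap, so 1 box is counted in both. The stretches before the gene are printed for 3 members: Alas2 on chromosome X with AGATAA at position -86 from the start, Cpox on chromosome 16 with TGATAA at position -86, and Alad on chromosome 4 with a GC box at position -56 and neither GATA sequence. Capitals mark the motif, here on the gene's own strand, where TTATCT and TTATCA are the other strands of AGATAA and TGATAA.
Alas2 chrX:150547167-150547374 (+): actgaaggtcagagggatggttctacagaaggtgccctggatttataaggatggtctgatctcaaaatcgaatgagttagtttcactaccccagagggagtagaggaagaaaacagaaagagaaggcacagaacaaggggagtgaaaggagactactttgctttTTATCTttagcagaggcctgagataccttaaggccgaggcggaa
Cpox chr16:58669958-58670207 (+): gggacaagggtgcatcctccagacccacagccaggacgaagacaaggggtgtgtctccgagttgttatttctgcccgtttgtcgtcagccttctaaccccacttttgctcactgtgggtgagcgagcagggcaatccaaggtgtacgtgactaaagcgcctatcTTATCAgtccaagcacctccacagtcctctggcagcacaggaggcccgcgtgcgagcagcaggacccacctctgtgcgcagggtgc
Alad chr4:62520064-62520313 (-): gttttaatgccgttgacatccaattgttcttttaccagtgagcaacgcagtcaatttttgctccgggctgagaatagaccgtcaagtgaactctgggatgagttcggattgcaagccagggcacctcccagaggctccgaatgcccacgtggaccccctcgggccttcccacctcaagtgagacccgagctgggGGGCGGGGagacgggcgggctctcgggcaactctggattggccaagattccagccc
The further GATA matches were AGATAA at position 4 of Cpox and TGATAA at position -68 of the second Uros start. GC boxes also lay at position -26 of Alas2, outside the printed stretch, at 41 of Ppox and at -4 of Urod. The window of the second Alad start held 2 boxes. The first of them, at -210 from that start, is the printed box at -56 from the first start. These matches describe letters in a window and are not evidence of binding.

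After filtering, 21639 cells were kept (7313 and 6895 in the fusion libraries, 7431 in wild type), and the median cell had 7360 and 10008 UMIs in fusion and 7430 in wild type. The libraries shared 19 to 23 cell barcodes per pair. Cells fell into 27 clusters and 14 marker-named classes, and the 8 members were left out of the genes used for clustering. In these 2-against-1 comparisons the spread comes from the fusion libraries alone, and p-values measure the spread between libraries. Counting intervals cover counting error only. As a look at the labels, Zfp384, the mouse counterpart of ZNF384, stood at 26.1 and 19.9 TMM-normalised CPM in all fusion cells against 15.5 in wild type. Ep300 stood at 68.2 and 53.9 against 85.5. TMM-normalised CPM are UMI counts scaled to library totals that edgeR's TMM factors have adjusted. Reads at the 3′ end do not show the junction. Unless called normalised, a CPM value below scales a gene's UMIs to all UMIs summed over the cells of a class in 1 library, with the fusion libraries given first.

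The erythroid cells were separated into 3 stages that held the markers of their names. Early erythroid-megakaryocyte progenitors (508 and 505 fusion cells, 299 wild-type cells) held Gata2, a factor of early progenitors, at 417 and 317 CPM in fusion and 368 in wild type. Committed erythroid progenitors (1615 and 1513 fusion cells, 683 wild-type cells) held Car1, a carbonic anhydrase of early red cell precursors, at 2752 and 2359 CPM against 2593. Erythroblasts (182 and 260 fusion cells, 146 wild-type cells) held the beta-globin gene Hbb-bs at 2523 and 2213 CPM against 4331. Many genes of the early and committed lists were not highest in the stage of their name. Gata1, of the early list, had 92.8 and 97.1 CPM against 99.2 in early cells and 156 and 150 against 143 in erythroblasts. Klf1, of the committed list, had 260 and 250 against 238 in committed cells and 404 and 395 against 346 in erythroblasts. Early cells also held Car1, at 936 and 828 CPM against 1270. Globin stayed under 10% of UMIs in every cell of these classes. Committed cells made up 22.1% and 21.9% of the fusion libraries and 9.19% of wild type (two-sided exact permutation test over 3 labellings, p = 0.333, the smallest possible).

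Along these stages 7 of the 8 members were highest in erythroblasts, and the exception was Alas1. In order of mean level, erythroblasts came first and committed progenitors second for Alad, Uros, Urod, Cpox, Ppox and Fech, and for each of the 6 the ranges over the 3 libraries did not overlap between the first and the second class, or between the second and the third. Uros, the synthase that closes the ring, had 8.02 and 8.43 CPM in early fusion cells and 7.89 in early wild-type cells, 18.2 and 14.98 against 17.5 in committed cells, and 100.2 and 87.0 against 118 in erythroblasts. Fech, the ferrochelatase, had 28.5 and 27.4 CPM against 33.0, then 60.5 and 65.1 against 65.3, then 184 and 198 against 221. Both genes thus gained most of their level between committed cells and erythroblasts in every library, whereas Urod, which decarboxylates the ring's side chains, already stood at 84.1 and 73.1 against 76.1 in early cells, 138 and 119 against 127 in committed cells, and 264 and 233 against 242 in erythroblasts.

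**Figure D1:**
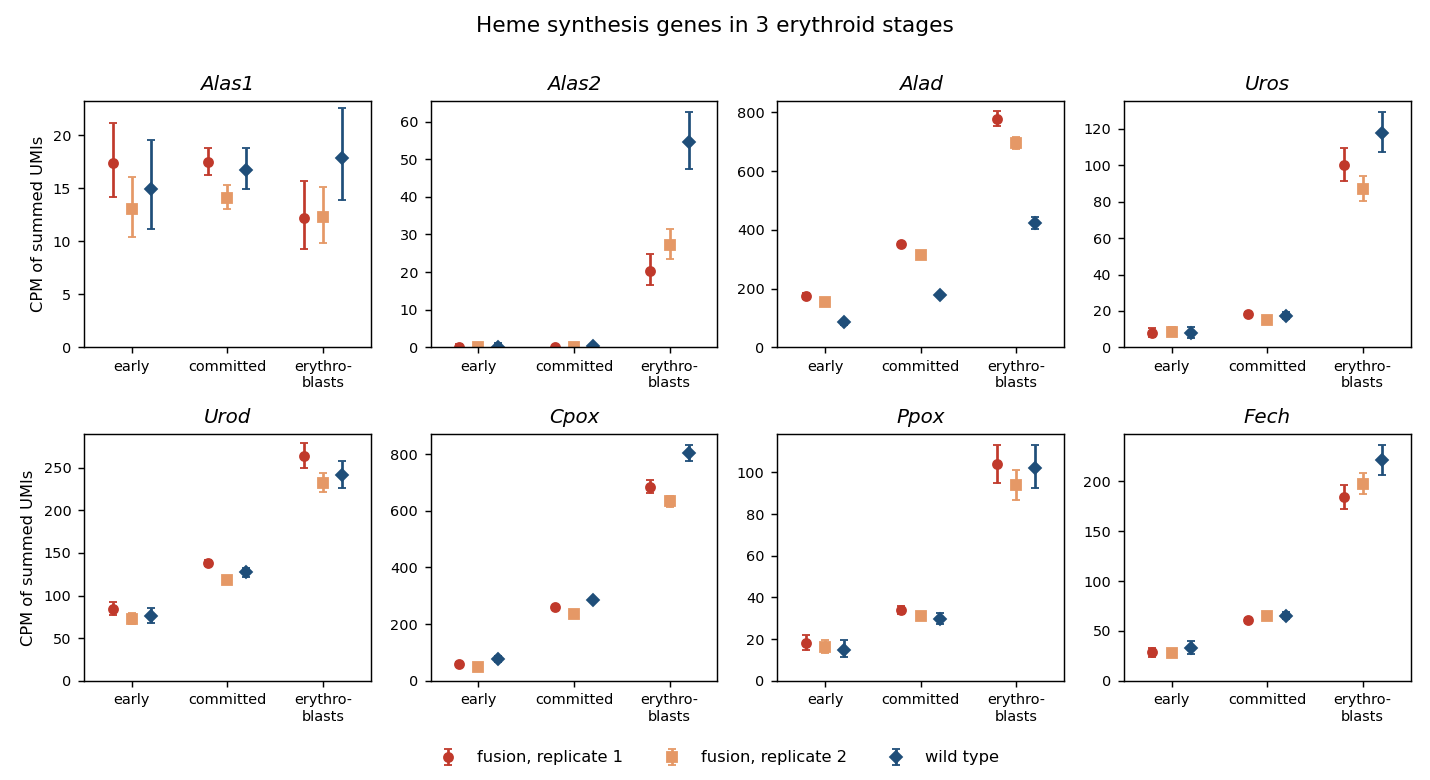
UMI counts summed per library and stage, in CPM (y axis, from 0, with a separate scale for each gene) for the 8 genes in early, committed and erythroblast classes (x axis). Points are the 3 libraries and bars are exact 95% Poisson intervals for counting error. Alad lies higher in both fusion libraries at every stage, and Alas2 lies lower in both fusion erythroblast sums.

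Alad, which makes porphobilinogen, was the member called higher in fusion cells of an erythroid stage. Committed progenitors held Alad at 351 and 316 CPM in the fusion libraries and at 178 CPM in wild type. Both fusion values were above the wild-type value, and the log2 difference was 0.87 ± 0.19 (SE), with an adjusted p of 0.00815 in edgeR's quasi-likelihood test over 12726 genes. Of the 8 members, all tested in committed cells, Alad was the 1 called higher and none was called lower; the background of genes called in either direction there was 2.3%, with 0.652% called higher. A call here means an adjusted p under 0.05 (Benjamini-Hochberg over all genes tested in the class).

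The size of the Alad difference varied little between ways of forming the class, and its call did not hold in all of them. Over 17 alternatives the log2 difference ran from 0.69 to 0.98, and 5 of the 15 that allow a test called it, with adjusted p from 0.000569 to 0.341. The call was lost, among others, with equal cell numbers (adjusted p = 0.104), with a stricter cell filter (adjusted p = 0.237) and with no filter on low counts (adjusted p = 0.0778), all in edgeR, and kept by DESeq2 (adjusted p = 0.000569). The 3 clusters of the class, taken singly, gave 0.93, 0.98 and 0.69. No single cell carried the result: the cell with the most Alad UMIs held 48, and without it the difference was 0.87.

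Early progenitors and erythroblasts showed Alad values of the same order. In early cells Alad stood at 175 and 154 CPM in fusion and 84.5 CPM in wild type, a log2 difference of 0.92 ± 0.16 that was not called (edgeR, adjusted p = 0.176). No gene of 11114 was called in that class by edgeR (percent called 0), where 712 genes had an unadjusted p under 0.05 and DESeq2 called 3. Over 12 alternatives the early Alad difference ran from 0.46 (marker gates, adjusted p = 0.908 in edgeR, on 46, 41 and 18 Alad UMIs) to 1.16, and 4 of the 10 that allow a test called it. With other clusterings it was called, at 1.16 (Leiden resolution 0.5, adjusted p = 0.00451 in edgeR) and 1.07 (resolution 2, adjusted p = 0.00795). In erythroblasts Alad stood at 778 and 695 CPM against 423, with a log2 difference of 0.75 ± 0.20 that was not called (edgeR, adjusted p = 0.0934). The fusion and wild-type values did not overlap at any stage. The difference in fusion effect between stages was -0.08 ± 0.11 from early to committed cells (adjusted p = 0.932, edgeR stage-by-genotype term) and -0.13 ± 0.06 from committed cells to erythroblasts (adjusted p = 0.435).

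Alad was also higher in fusion outside the erythroid line. In 13 of the 14 classes both fusion libraries lay above wild type, with log2 differences of 0.33 to 1.24 over all classes and a median of 0.89; the exception was pro-B cells, at 91.0 and 43.3 CPM against 49.6. Of 5579 genes tested in every class, 64 (1.15%) were higher in both fusion libraries in at least 13 classes. The classes share the 3 libraries and are not independent. Alad was called higher in lymphoid progenitors, megakaryocytes, basophils and mast cells, and immature and mature neutrophils as well as committed progenitors, with the share of genes called higher in those 5 other classes at 0.714%, 0.106%, 3.19%, 1.64% and 3.01% in that order, and called in either direction at 2.29%, 0.709%, 10.3%, 3.4% and 8.29%. In the remaining non-erythroid classes no member was called, where 0.0489% (granulocyte-monocyte progenitors), 2.26% (monocytes), 0.45% (plasmacytoid dendritic cells), 0.753% (pro-B), 1.2% (pre-B to mature B) and 2.13% (T, NK and innate lymphoid cells) of genes were. Within the mature neutrophil class the genotypes lay in different clusters. Fusion cells filled cluster 0 (967 and 749, against 3 from wild type), cluster 2 (855 and 690 against 2) and cluster 20 (243 and 149 against 0). Wild-type cells filled cluster 8 (965, against 5 and 8 fusion cells) and cluster 11 (794, against 7 and 7). The mature neutrophil values therefore compare different clusters. The 2 basophil and mast cell clusters were also filled unevenly, with 142, 211 and 269 cells in cluster 15 and 56, 60 and 330 in cluster 19. In basophils and mast cells Alad had 84.6 and 76.2 CPM against 31.3 (log2 difference 1.24 ± 0.20, edgeR, adjusted p = 7.78e-08). In megakaryocytes it had 79.4 and 78.5 CPM against 36.8 (1.06 ± 0.22, edgeR, adjusted p = 0.0277), and in granulocyte-monocyte progenitors, where it was not called, 63.5 and 56.7 against 31.0 (0.90 ± 0.12, edgeR, adjusted p = 0.117). Outside the erythroid stages edgeR called 6 pairs of member and class, 5 of them Alad, and DESeq2 called none.

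**Figure D2:**
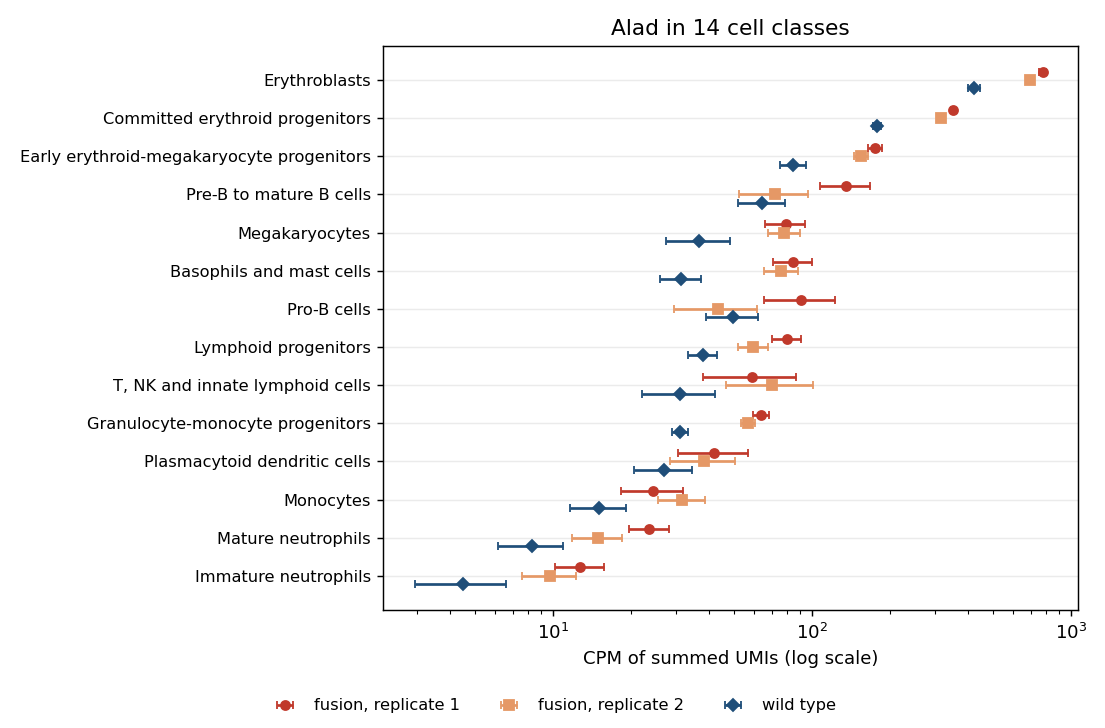
Alad in CPM of summed UMIs (x axis, log scale) in 14 cell classes (y axis, ordered by mean) for the 3 libraries, with exact 95% Poisson intervals for counting error. Wild type is the lowest of the 3 values in every class but pro-B cells, where it lies between the fusion libraries.

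Erythroid cells made up more of the fusion libraries, so the 9 committed erythroid markers were summed in every class as a measure of erythroid RNA there. The mean fusion level of the sum was 1.04 to 2.64 times wild type in the non-erythroid classes other than pre-B to mature B cells, where it was 0.944 times. The part of erythroid RNA in the Alad differences was not tested. In granulocyte-monocyte progenitors the markers stood at 1.6% and 1.5% of their committed level in the fusion libraries and 0.7% in wild type, while Alad stood at 18.1%, 17.9% and 17.4% of its own committed level. In megakaryocytes the marker sums were 406 and 391.9 CPM against 384.6 in wild type, a mean ratio of 1.04, beside a mean Alad ratio of 2.15. Car1, which made up most of the sum in committed cells, was a small part of it in megakaryocytes. It stood there at 44.41 and 32.04 CPM in fusion against 18.04 in wild type. The near-equal sums in megakaryocytes thus came mostly from the other markers and do not show equal erythroid RNA. The marker ratio was above the Alad ratio in lymphoid progenitors (2.54 and 1.84), granulocyte-monocyte progenitors (2.06 and 1.94), monocytes (1.90 and 1.86), plasmacytoid dendritic cells (2.14 and 1.495) and pro-B cells (2.64 and 1.35), and below it in the other non-erythroid classes. In mature neutrophils the 2 shares lay closer together, with the markers at 4.9%, 3.5% and 2.6% and Alad at 6.7%, 4.7% and 4.6%. In pre-B to mature B cells they were 29.1%, 15.9% and 24.5% for the markers and 38.5%, 22.9% and 36.2% for Alad. Car1 itself stood at 782, 327 and 607 CPM in that B cell class. T, NK and innate lymphoid cells, which do not make haemoglobin, held 58.8 and 69.9 CPM of Alad against 31.0. After thinning each cell to 2000 UMIs, a UMI of Alad was seen in 9.38% and 12.5% of those cells in fusion and 6.88% in wild type, and in 45.9% and 43.5% of committed cells in fusion and 27.5% in wild type. Without thinning the committed shares were 94.2% and 93.3% against 83.6%, and 18.9% and 25.3% against 14.5% in the lymphoid class. Thinning left out 84, 38 and 51 committed cells and 15, 3 and 16 lymphoid cells. Median depth was 2953 to 4385 UMIs per cell in the lymphoid class and 27842 to 28467 in committed cells before thinning.

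**Figure D3:**
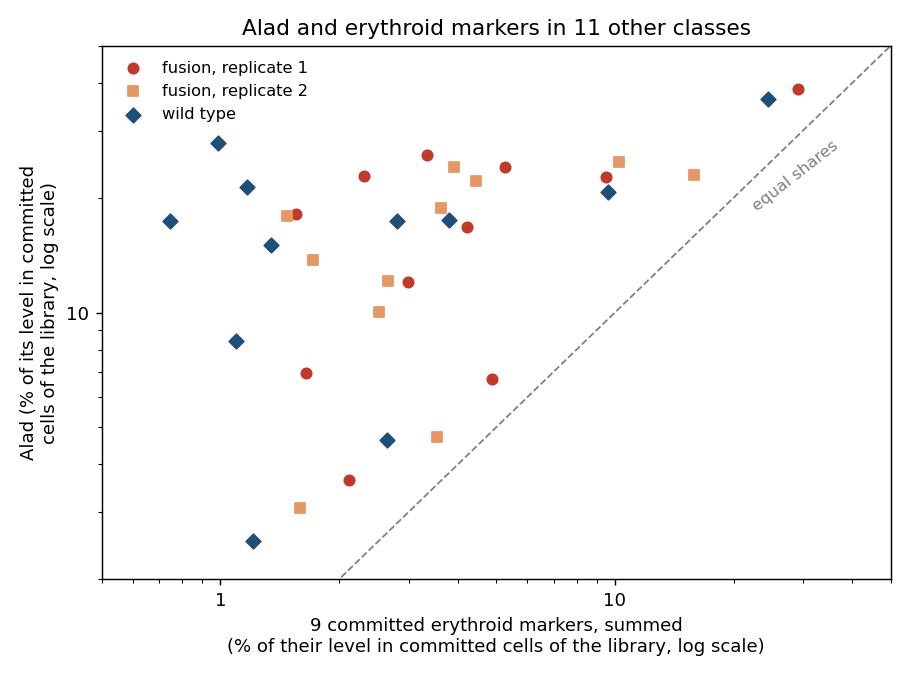
Alad (y axis) against the sum of 9 committed erythroid marker genes (x axis), each as a percentage of its level in committed progenitors of the same library, in 11 non-erythroid classes and 3 libraries; both axes are log scales and the dashed line marks equal shares. Every point lies above the line, with the pre-B to mature B and mature neutrophil points among the nearest to it.

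The genes next to Alad were read because its difference reached nearly all classes; they were chosen after the Alad values were seen. Alad lies on chromosome 4 at 62509169-62519918 (GRCm38, minus strand). The neighbours were the next 5 protein-coding genes on each side, which reach 82.2 kb on one side and 623 kb on the other. In the sum of all cells, 8 of these 10 genes were tested and 2 were called higher, where 3.96% of genes were called higher. Hdhd3, a gene for a hydrolase-like protein that ends 5.7 kb from Alad, had 3.54 and 3.69 normalised CPM in fusion and 1.59 in wild type (log2 difference 1.18 ± 0.24, edgeR, adjusted p = 0.00124). Zfp618, 446 kb away, had 0.593 and 0.588 against 0.231 (adjusted p = 0.0467, edgeR). Pole3, a DNA polymerase subunit gene 2.7 kb on the other side, had 85.9 and 90.4 against 80.3 and was not called (0.14 ± 0.15). Within early, committed and erythroblast classes Pole3 was lower in both fusion libraries, without a call (-0.21 ± 0.15, -0.23 ± 0.15 and -0.27 ± 0.17). Its direction varied in other classes, and in monocytes it was higher in both (0.23 ± 0.22, not called). Within committed cells none of the 5 neighbours tested was called, and Hdhd3 differed by 0.63 ± 0.26 (edgeR, adjusted p = 0.347). Hdhd3 was also higher in both fusion libraries, without a call, in the other classes where it was tested. It differed by 1.87 ± 0.69 in erythroblasts (on 19, 29 and 4 UMIs) and 1.09 ± 0.32 in granulocyte-monocyte progenitors. In lymphoid progenitors it differed by 0.69 ± 0.51 and in early cells by 0.36 ± 0.58. Rgs3, a regulator of G protein signalling 39.9 kb from Alad, was called higher in basophils and mast cells (2.57 ± 0.75, edgeR, adjusted p = 0.00975), immature neutrophils (0.91 ± 0.22, adjusted p = 0.0136) and mature neutrophils (1.01 ± 0.21, adjusted p = 0.000104), but not in all cells (0.35 ± 0.16, adjusted p = 0.168). As background, a segment of this chromosome that holds Alad and Hdhd3 is known to differ in copy number between inbred mouse strains; copy number and strain were not tested.

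Alas2 was found almost entirely in erythroblasts. That class held 99 of 111 Alas2 UMIs in fusion replicate 1, 193 of 223 in fusion replicate 2 and 208 of 221 in wild type, and T, NK and innate lymphoid cells held none. In erythroblasts Alas2 stood at 20.4 and 27.2 CPM in fusion and 54.5 CPM in wild type. The groups did not overlap, and the log2 difference was -1.22 ± 0.19 (edgeR, adjusted p = 0.00266). Alas2 was the 1 member of 8 called lower in erythroblasts, where 0.994% of genes were called lower and 1.19% called in either direction. Of 14 alternatives that allow a test, 10 called it, and the call was lost with DESeq2 (adjusted p = 0.370), with the stricter cell filter (edgeR, adjusted p = 0.190) and within both globin ranges described below. With either fusion library left out the difference was -1.50 or -1.01. In committed cells Alas2 had 7, 8 and 6 UMIs in all, a difference of -0.94 ± 0.97, and in early cells it was not tested.

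Fusion erythroblasts also held less globin. The 4 adult globin genes together made up 7000 and 7033 CPM in the fusion erythroblasts and 11413 CPM in wild type, and cells with at least 2% globin made up 17.0% and 9.23% of fusion erythroblasts and 32.2% of wild type. After thinning to 2000 UMIs, 4.22% and 4.70% of fusion erythroblasts and 13.6% of wild-type ones held an Alas2 UMI (27.5%, 35.4% and 46.6% without thinning). Alas2 per 1000 globin UMIs was 2.91 and 3.87 in fusion and 4.78 in wild type. When erythroid cells were compared within the same range of globin, the difference in Alas2 was smaller. At 0.5 to 2% globin, Alas2 had 24.3 and 49.6 CPM without globin in fusion (62 and 101 cells) and 72.0 in wild type (47 cells), a log2 difference of -0.91 ± 0.30 (edgeR, adjusted p = 0.296; 0.597% of genes called). At 2 to 10% globin, it had 117 and 98.6 CPM against 132 (31, 24 and 47 cells), a log2 difference of -0.31 ± 0.28 (edgeR, adjusted p = 0.938; 0.635% called). These ranges are cuts of a continuous score: 6 to 30 cells per library lie within 20% of the lower cut's value and 21 to 29 within 20% of the upper one's.

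**Figure D4:**
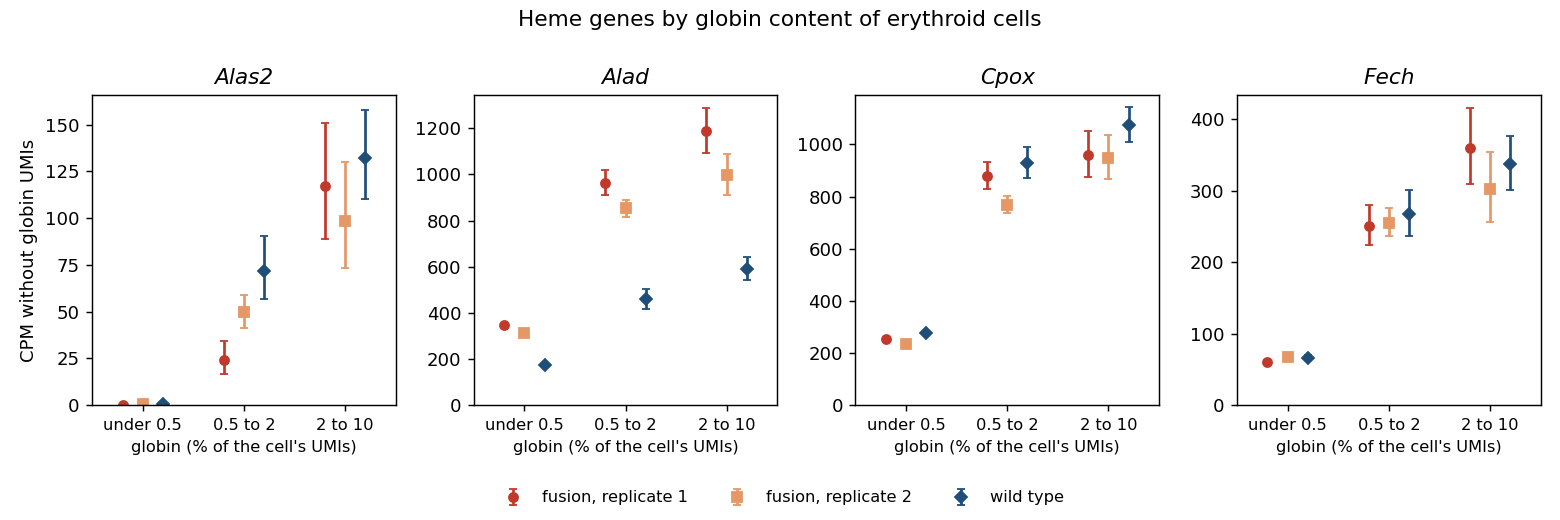
Alas2, Alad, Cpox and Fech in CPM without globin UMIs (y axis, from 0, with a separate scale for each gene) in erythroid cells binned by the globin share of their UMIs (x axis), for the 3 libraries with exact 95% Poisson intervals. In the 2 to 10% bin the Alas2 intervals of the 3 libraries overlap, while both fusion Alad values stay above wild type in every bin.

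In the same globin ranges Alad stayed higher in both fusion libraries, again without a call. It had 965 and 853 CPM without globin against 459 at 0.5 to 2% globin (0.93 ± 0.23, edgeR, adjusted p = 0.0756), and 1188 and 998 against 592 at 2 to 10% (0.86 ± 0.28, edgeR, adjusted p = 0.187). Uros, at 124.7 and 120.2 against 124.6 and then 192 and 148 against 175, differed by -0.08 ± 0.21 and -0.06 ± 0.27. Cpox differed by -0.23 and -0.19, Fech by -0.13 and -0.05, Ppox by -0.15 and -0.02 and Urod by 0.08 and 0.11, none called. Alas1 differed by -1.17 ± 0.38 at 0.5 to 2% globin (edgeR, adjusted p = 0.296) and was not tested at 2 to 10%. In the whole erythroblast class, by contrast, the Uros difference was -0.38 ± 0.16 and was not called (edgeR, adjusted p = 0.380).

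Cpox, the mitochondrial oxidase whose promoter is printed above, was lower in both fusion libraries at each erythroid stage and was called at none. It had 59.4 and 48.7 CPM against 76.9 in early cells (-0.56 ± 0.16, edgeR, adjusted p = 0.499), 259 and 237 against 284 in committed cells (-0.23 ± 0.18, edgeR, adjusted p = 0.844), and 685 and 633 against 803 in erythroblasts (-0.33 ± 0.19, edgeR, adjusted p = 0.577). Ppox, the next oxidase, differed by 0.15 ± 0.22, 0.10 ± 0.13 and -0.10 ± 0.16 at the 3 stages, and Urod by 0.00 ± 0.15, -0.02 ± 0.16 and -0.01 ± 0.17. Fech differed by -0.28 ± 0.16, -0.08 ± 0.13 and -0.26 ± 0.17. Alas1 differed by -0.02 ± 0.26 in early cells and -0.12 ± 0.15 in committed cells, where it had 17.5 and 14.1 CPM against 16.8. None of these was called. The median log2 difference of the members tested was 0.00 in early cells, -0.10 in committed cells and -0.29 in erythroblasts, beside medians of 0.00, 0.00 and 0.01 over all genes tested. No member was called in the test of whether the fusion effect differs between neighbouring stages, where 0.598% of 12383 genes were called from early to committed cells and 1.57% of 11609 from committed cells to erythroblasts. Before adjustment, 1 member (Cpox) in the first test and 3 (Alad, Cpox and Uros) in the second had p under 0.05, where 7.98% and 10.2% of genes did.

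Alas1 followed the granulocyte line instead. Its highest class was granulocyte-monocyte progenitors, with 157 and 182 CPM in fusion and 232 in wild type, followed by immature neutrophils (116 and 98.6 against 121), mature neutrophils (57.8 and 62.5 against 77.4) and monocytes (48.3 and 49.5 against 54.9). The ranges over the libraries did not overlap between any neighbours among these 4 classes. From basophils and mast cells downwards they did. Erythroblasts, with 12.2 and 12.3 CPM against 17.8, ranked 13 of 14, just above T, NK and innate lymphoid cells. Among the clusters of granulocyte-monocyte progenitors, the one led by Elane, the neutrophil elastase gene, held Alas1 at 299 and 322 CPM against 435. Granulocyte-monocyte progenitors carried 45.0% and 56.7% of all Alas1 UMIs in the fusion libraries and 72.0% in wild type, where they made up 9.50%, 11.7% and 16.8% of the cells.

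**Figure D5:**
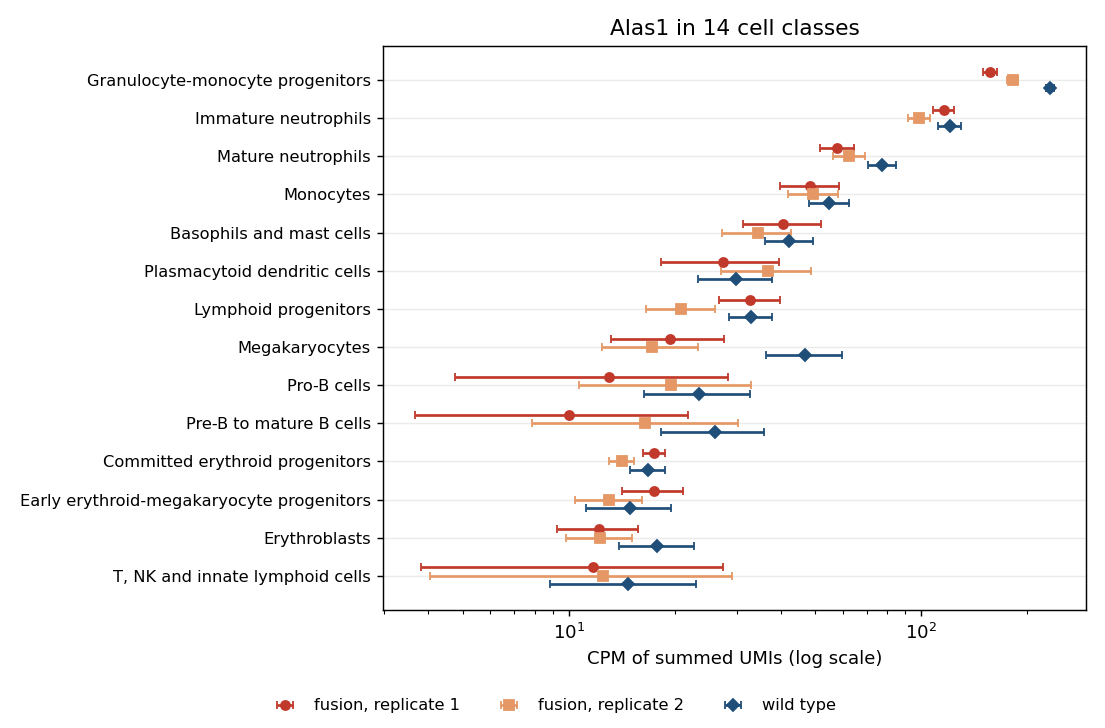
Alas1 in CPM of summed UMIs (x axis, log scale) in 14 cell classes (y axis, ordered by mean) for the 3 libraries, with exact 95% Poisson intervals for counting error. The granulocyte-monocyte progenitor and neutrophil classes lie highest and the erythroid classes among the lowest.

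After TMM normalisation, wild-type Alas1 was higher than both fusion values in 11 of the 13 classes in which it was tested. The median log2 difference was -0.35, and 1 class was called. Of 5579 genes tested in every class, which leave out Alas1, 75 (1.34%) were lower in both fusion libraries in at least 13 of 14. Alas1, at 11 of 13, did not reach that bar, and the share of genes at its own count was not computed. Mpo, the myeloperoxidase gene, was also lower in both in each class except lymphoid progenitors and pre-B to mature B cells. The part of granulocyte RNA in the Alas1 differences was not tested. In granulocyte-monocyte progenitors the difference was -0.49 ± 0.18 (edgeR, adjusted p = 0.641) and in mature neutrophils, where fusion and wild-type cells lay in the different clusters named above, -0.49 ± 0.20 (edgeR, adjusted p = 0.123). The called class was megakaryocytes, at 19.4 and 17.3 CPM in fusion and 46.9 in wild type (-1.40 ± 0.28, edgeR, adjusted p = 0.0168; 0.603% of genes called lower). That value rested on 1 wild-type cell, which held 44 of the 65 Alas1 UMIs together with 246 UMIs of Mpo and 276 of Elane, granule genes of neutrophil precursors, and 75 of Pf4, a platelet gene. Without that cell wild type had 15.8 CPM and the difference was 0.17 ± 0.37 (edgeR, adjusted p = 0.952; 0.763% of genes called), so the Alas1 call was not kept. In wild-type erythroblasts 1 cell held 18 of 68 Alas1 UMIs and 564 UMIs of Elane, and the 5 granulocyte-monocyte progenitor markers summed to 469 CPM there against 33.4 and 22.1 in fusion, none of the 5 at 0. The erythroblast difference in Alas1 went from -0.59 to -0.16 without that cell. Likewise, all 19 Alas2 UMIs of immature neutrophils lay in 1 cell of fusion replicate 2.

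Sums over all cells mix these patterns with the makeup of the libraries. There, Alad (243 and 214 CPM against 78.8), Urod (99.1 and 84.6 against 58.7), Fech (45.7 and 49.9 against 34.3) and Ppox (29.3 and 26.9 against 19.99) were called higher and Alas1 (48.1 and 52.1 against 99.8) lower, with 3.96% of genes called higher, 11.8% lower and 15.8% in all. Within the erythroid stages Urod, Fech and Ppox were not called, and in these sums more cells of a stage and more RNA per cell cannot be told apart. The log2 differences in all cells were 1.54 ± 0.20 for Alad, 0.65 ± 0.16 for Urod, 0.49 ± 0.14 for Fech, 0.50 ± 0.14 for Ppox and -0.99 ± 0.14 for Alas1.

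Beyond the members, 30 genes that move heme and its precursors, regulate the chain, build iron-sulfur clusters, export or break down heme, or supply iron were read at the 3 stages, and 28 were tested at each. Only 1 was called in any stage: Abcb6, a transporter of porphyrins, in committed cells, at 22.8 and 22.2 normalised CPM in fusion against 14.99 (0.59 ± 0.14, edgeR, adjusted p = 0.0173), where 2.3% of all genes were called. No gene of the list was called in early cells or in erythroblasts, where 0% and 1.19% of all genes were. It was also higher in both fusion libraries in early cells (8.75 and 8.41 against 2.30, edgeR, adjusted p = 0.320) and in erythroblasts (75.9 and 73.8 against 52.4, edgeR, adjusted p = 0.202), without a call. Tmem14c, which carries protoporphyrinogen across the mitochondrial membrane, had 660 and 574 against 433 in committed cells (0.51 ± 0.21, edgeR, adjusted p = 0.356). Tfrc, the transferrin receptor that brings iron into erythroid cells, had 351 and 328 against 552 in erythroblasts (-0.70 ± 0.18, edgeR, adjusted p = 0.0779). By role, the median log2 difference of the 7 transport genes was 0.13 in early cells, 0.20 in committed cells and -0.01 in erythroblasts, and that of the 3 iron supply genes was -0.31, -0.26 and -0.30 at these stages. The median over all 28 was -0.02, 0.06 and 0.03, and over all genes 0.00, 0.00 and 0.01. At the 3 stages 4, 4 and 3 of the 28 had an unadjusted p under 0.05, where 6.41%, 9.72% and 10.8% of all genes did.

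Across the 42 sums of 14 classes and 3 libraries, the genes most like each member were ranked by Pearson's r on log2(CPM + 1). Alas2 was most like Slc4a1, the red cell anion exchanger (r = 0.94), and Hbb-bs (0.94). Alad and Urod were both most like Glrx5, a mitochondrial iron-sulfur cluster protein (0.95 and 0.96), Cpox like Minpp1 (0.96), Uros like Ubac1 (0.92), Fech like Urod (0.91) and Ppox like Cldn13 (0.91). Alas1 was most like Anxa3 (0.90). These are descriptions over sums that share libraries and depth.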

How the data were processed

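Per the submitters' processing notes, reads were made with bcl2fastq 2.20.0.422 and counted with Cell Ranger 5.0.1 against GRCm38; the deposited matrix headers name Cell Ranger 5.0.0. The deposited values are whole-number UMI counts for each gene in each barcode, without normalisation by the authors. The libraries hold 9057, 8122 and 9354 barcodes and 97192347, 111836603 and 93262028 UMIs (fusion replicates 1 and 2, wild type).

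Barcodes under 1000 UMIs or 400 genes, or above 10% of UMIs from mitochondrial genes, were dropped, and scrublet (expected rate 0.06) marked 225, 318 and 194 cells as doublets, which were left out. Clustering used scanpy 1.11.5 with 2000 variable genes (members left out), 30 principal components, 15 neighbours and Leiden resolution 1. A cluster took the name of the marker list with the highest mean score, with at least 3 markers each in at least 10% of its cells. Classes had at least 30 cells per library to be tested. Counts were summed per class and library and tested with edgeR 4.0.16 (TMM, filterByExpr, quasi-likelihood, Benjamini-Hochberg over all genes of the class) under R 4.3.3; DESeq2 1.42.0 was an alternative. The 1 wild-type library is assumed to vary like the fusion libraries. Nothing says that the libraries come from separate animals, so p-values measure only the spread between these libraries, which may be technical. Stage differences were tested with a stage-by-genotype term and a library block. On simulated data, genes changed by a fold of 2 were recovered at 68.7%, 79.1% and 79.1% in early, committed and erythroblast sums. Those changed by a fold of 1.5 were recovered at 32.8%, 61.2% and 44.8%. The simulated spread between libraries was a fixed setting, not estimated from these data, so these rates may not hold for the real comparisons.

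All members were entered in every comparison, and those that passed the filter on low counts were tested; the text gives each at the 3 erythroid stages and a selection in the other classes. Of 30 related genes, those called in a stage are named, with up to 4 more per stage by size of change. The 3 genes most like a member were ranked among genes with at least 50 CPM in 1 class, and the most similar ones are named. The members and lists were chosen with earlier results of these data known. Intervals are exact 95% Poisson or binomial intervals.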

Additional observations from a re-analysis of the deposited data

How the results depend on the processing

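No paired analysis was possible because the labels give the libraries no replicate numbers. The planned erythroblast gate at 10% globin could not be fitted, since it held 0, 1 and 0 cells; the globin ranges, the gates at 0.5% globin, the single clusters and the fits without 1 cell were chosen after seeing the data. The causes of the changes below were not tested.

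In early progenitors 1 member (Alad) was called, against 0, with Leiden resolution 0.5 and 2, doublets kept and equal cells, and all genes called were 38, 72, 48 and 57 there, 3 with DESeq2, 10 with marker gates and 34 with the stricter cell filter. In committed progenitors 0 members were called with Leiden resolution 0.5, clusters 3, 5 and 7, doublets kept, equal cells, gates at 0.5% globin, no filter on low counts and the stricter cell filter. Alad there differed by 0.88, 0.93, 0.98, 0.69, 0.90, 0.86, 0.96, 0.89 and 0.87 in that order, and by 0.86 with the planned marker gates, where it was not called either. All genes called were then 114, 22, 23, 3, 52, 53, 135, 89 and 1 in the same order, and 55 with DESeq2, against 293. In erythroblasts 0 members were called with DESeq2, both globin ranges and the stricter cell filter, where Alas2 differed by -1.23, -0.91, -0.31 and -1.18. There 2 members were called with DESeq2 size factors, doublets kept and no filter on low counts. All genes called were 22 with DESeq2, 282 with its size factors, 47 and 37 in the globin ranges, 74 with gates at 0.5% globin, 319 with no filter and 20 with the stricter cell filter, against 116. Pairs called in other classes were 0 with DESeq2 and 2 with equal cells, against 6. With doublets kept, Alas1 in erythroblasts differed by -1.56 and was called (edgeR, adjusted p = 0.00652).

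The differences below changed sign; of them only Alas1 in megakaryocytes had been called, at -1.40. In early cells Alas1 was 0.060 with equal cells and 0.0095 with the stricter cell filter, Uros -0.34, -0.16, -0.069, -0.035 and -0.024 (Leiden 0.5 and 2, doublets kept, equal cells, stricter filter), Urod -0.0012, -0.0014 and -0.11 (DESeq2, its size factors, marker gates) and Fech 0.039 and 0.065 (Leiden 0.5 and 2). In committed cells Uros was 0.032 in cluster 3, Urod 0.0042, 0.0065, 0.066, 0.014 and 0.083 (Leiden 2, cluster 3, doublets kept, both gates), Ppox -0.30 in cluster 5 and Fech 0.0029 in cluster 7. In erythroblasts Urod was 0.082 and 0.11 in the globin ranges and 0.012 with no filter, and Alas1 in megakaryocytes was 0.17 without its top cell. Leaving out 1 fusion library gave ranges of -0.20 to 0.14 (Alas1, early), -0.056 to 0.087 (Uros, early), -0.066 to 0.065 (Urod, early), -0.090 to 0.049 (Urod, committed), -0.18 to 0.0055 (Fech, committed) and -0.066 to 0.041 (Urod, erythroblasts). It gave 0.84 to 0.91 for Alad in committed cells and -1.50 to -1.01 for Alas2 in erythroblasts. Without thinning, Alas2 UMIs were in 27.5%, 35.4% and 46.6% of erythroblasts and Alad UMIs in 94.2%, 93.3% and 83.6% of committed cells. Committed progenitors held 7, 8 and 6 Alas2 UMIs, too few for a firm comparison.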
